A study of Mus musculus with 18 samples.

Results

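The mouse miRNAs mmu-miR-103-3p and mmu-miR-107-3p, written below without the species prefix, are known as regulators of insulin sensitivity and are encoded inside pantothenate kinase genes. They were picked by name for that role, with earlier results of these data known. They are 2 of the 758 mature miRNAs listed in the deposited tables. Their means over all libraries were 10656 RPM (read counts scaled to library size) for mmu-miR-103-3p and 5240 RPM for mmu-miR-107-3p. Their levels were followed in small RNA of whole liver from wild-type C57BL/6J mice, in 18 libraries that form 6 groups of 3. The groups are HF+CR, HF+Ex, HF, LF+CR, LF+Ex and LF. The labels give only these abbreviations, of which HF and LF are read here as high-fat and low-fat diet, and CR and Ex as calorie restriction and exercise. All regimens began at 5 weeks of age and all livers were taken at 62 weeks. No transgene or knockout is involved, and every group shares the strain, the genotype and the tissue. The labels do not say that the 3 libraries of a group come from separate animals, so p-values describe no more than the spread from library to library, which may be technical.

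A miRNA is a short RNA that guides a silencing complex to messenger RNAs, mainly through its seed, the bases 2 to 8 counted from the 5′ end. miR-103 and miR-107 share that seed. In obese mice, silencing them has been shown to improve glucose handling and insulin signalling, with caveolin-1 as a described target in fat cells. Their host genes Pank1, Pank2 and Pank3 encode enzymes that make the first intermediate of coenzyme A, a carrier used throughout lipid and glucose metabolism. The wider miR-15 and miR-107 group, in which miR-15 and miR-16 are known as brakes on the cell cycle, carries the same AGCAGC stretch shifted by 1 base.

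The sequences show how alike the pair is. Capitals mark the seed and the base at which they differ (RefSeq, GRCm38.p6).
miR-107-3p: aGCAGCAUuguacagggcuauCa
miR-103-3p: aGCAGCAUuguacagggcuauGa
Both are 23 bases long and share their first 21 bases. The single substitution is G22C, with miR-103-3p as the first sequence and positions counted from the 5′ end. A read that stops before that base cannot be given to either miRNA. How such reads were counted is not given in the sources used here, so the split between both members is uncertain. Their sum is free of the split, but would still move if such reads were dropped or counted to both, which was not tested.

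miR-103-3p can come from 2 precursors and miR-107-3p from 1. Capitals mark the mature 3p arm in each hairpin (RefSeq, GRCm38.p6).
Mir107: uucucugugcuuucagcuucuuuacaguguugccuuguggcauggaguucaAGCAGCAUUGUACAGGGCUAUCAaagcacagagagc
Mir103-1: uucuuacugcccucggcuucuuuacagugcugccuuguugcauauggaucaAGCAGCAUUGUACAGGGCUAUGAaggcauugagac
Mir103-2: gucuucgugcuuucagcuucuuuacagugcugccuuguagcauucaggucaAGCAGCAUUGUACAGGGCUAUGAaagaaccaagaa
Mir107 is at chr19:34820687-34820773 on the minus strand, in intron 5 of Pank1 (GRCm38, GENCODE M21). Mir103-1 is at chr11:35782396-35782481 on the plus strand, in intron 5 of Pank3. Mir103-2 is at chr2:131288052-131288137 on the plus strand, in intron 5 of the principal Pank2 transcript. Each precursor runs in the sense of its host gene and overlaps no other annotated gene. The mature miR-103-3p is identical from Mir103-1 and Mir103-2, so its value is the sum over both.

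The 7 listed relatives of the miR-15 and miR-107 group show the shifted stretch. Capitals mark AGCAGC, at bases 2 to 7 here and at bases 1 to 6 in the pair (RefSeq, GRCm38.p6).
miR-15a-5p: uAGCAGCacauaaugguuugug
miR-15b-5p: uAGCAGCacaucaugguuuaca
miR-16-5p: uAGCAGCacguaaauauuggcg
miR-195a-5p: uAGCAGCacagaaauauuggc
miR-322-5p: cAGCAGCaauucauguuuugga
miR-497a-5p: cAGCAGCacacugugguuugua
miR-503-5p: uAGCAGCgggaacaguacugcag
A mature RefSeq sequence was matched to 610 of the 758 listed miRNAs (80.5%). Of those, 2 carry the seed GCAGCAU, and they are miR-103-3p and miR-107-3p themselves. AGCAGC at bases 2 to 7 is held by 7 (1.15%), which are the relatives printed above.

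Both members were abundant in liver. Levels are in RPM as deposited. miR-103-3p ranked 19th of 758 by its mean over the 18 libraries and made up 1.10% of all listed RPM. miR-107-3p ranked 34th and made up 0.541%. The highest library held 2.12 times the lowest for miR-103-3p and 2.52 times for miR-107-3p. The RPM steps imply 25062 to 105558 reads per library for miR-103-3p and 9437 to 56474 for miR-107-3p, so counting error is small beside the spread between libraries.

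The other arms of the precursors were close to undetected. miR-107-5p was listed above 0 in 17 of 18 libraries, with 208 implied reads in all, against 624302 for miR-107-3p, a ratio of 3001. For miR-103, 6 implied reads of both 5p arms together stood beside 210491 times as many of the 3p arm. miR-103-1-5p was seen in 1 library and miR-103-2-5p in 2. The smallest listed value anywhere was 2 reads, so a value of 0 may stand for 1 read.

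In the calorie-restricted livers on the high-fat diet, miR-107-3p was at 3872, 5289 and 3154 RPM in HF+CR, against 5313, 7946 and 7190 RPM in HF. All 3 HF+CR libraries lay below all 3 HF libraries, but the highest HF+CR library and the lowest HF library were nearly equal. miR-103-3p was at 8396, 10991 and 8377 RPM in HF+CR, against 9744, 17184 and 13355 RPM in HF. Here the groups overlapped, because the second HF+CR library exceeded the first HF library.

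On the low-fat diet, miR-107-3p was at 4321, 3609 and 4085 RPM in LF+CR, against 5027, 5684 and 5638 RPM in LF. miR-103-3p was at 8717, 8707 and 8088 RPM in LF+CR, against 12178, 11615 and 11519 RPM in LF. For both members every LF+CR library was below every LF library. The gap between the groups was wider than the range of either group for miR-103-3p, but not for miR-107-3p.

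In the exercised livers, miR-107-3p stood at 5932, 6185 and 6299 RPM in HF+Ex and at 4841, 4204 and 5722 RPM in LF+Ex. miR-103-3p stood at 10423, 11734 and 11674 RPM in HF+Ex and at 9961, 8809 and 10329 RPM in LF+Ex. HF+Ex was tight and stood inside the range of HF. The LF+Ex libraries overlapped those of LF for miR-107-3p and all lay below them for miR-103-3p.

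**Figure D1:**
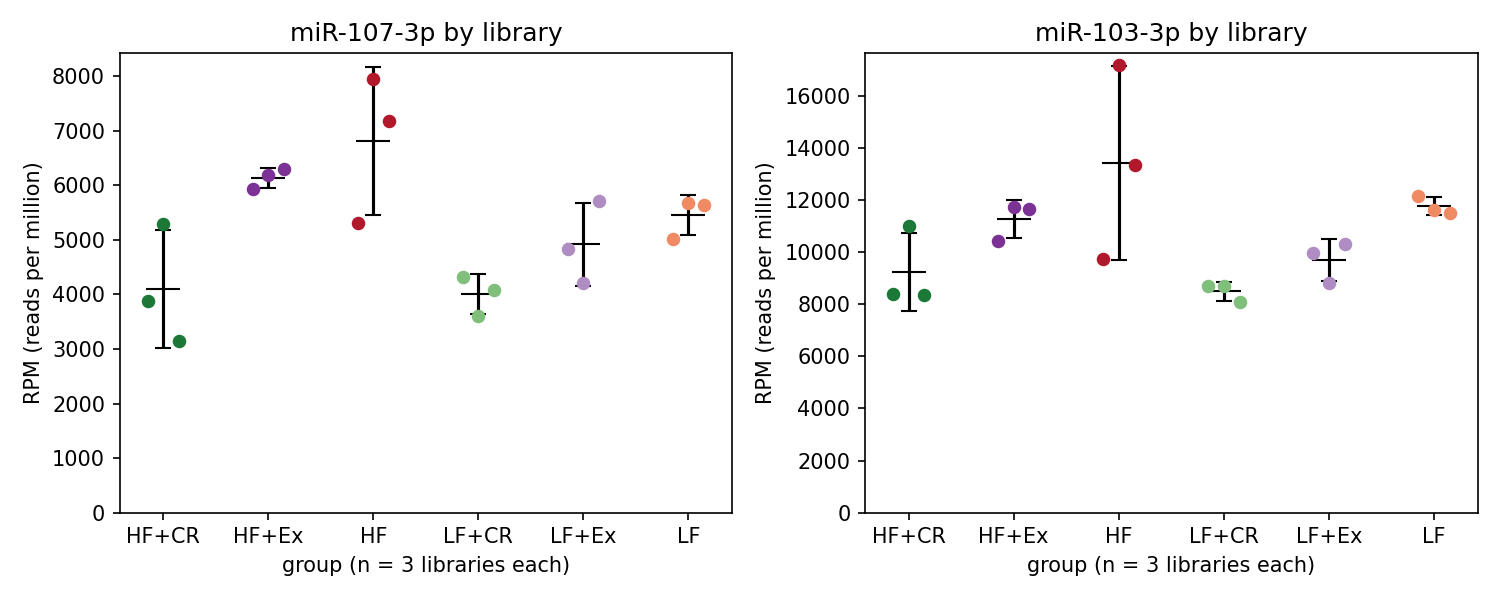
Level of miR-107-3p (left) and miR-103-3p (right) in RPM, for the 6 groups. Points are the 3 libraries of a group, horizontal bars the mean and vertical bars the SD. The 3 LF+CR points lie below the 3 LF points in both panels, and HF shows the widest spread, from 9744 to 17184 RPM for miR-103-3p.

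By group mean, miR-107-3p ran from LF+CR at 4005 ± 363 RPM (SD, n = 3, as for the other means here) through HF+CR at 4105 ± 1086, LF+Ex at 4922 ± 762, LF at 5450 ± 367 and HF+Ex at 6139 ± 188 to HF at 6816 ± 1356 RPM. Of these neighbours, LF and HF+Ex were the ones whose libraries did not overlap as deposited. Rescaled by size factors they overlapped, with miR-107-3p at 4178 to 6391 in LF and at 5081 to 5989 in HF+Ex. LF and HF+Ex differ in diet as well as exercise. The share of all miRNAs that did not overlap between them was not determined. In the single pairs of groups compared below, it ran from 14.5% to 41.9% of 351 tested miRNAs, in either direction. miR-103-3p ran from LF+CR at 8504 ± 360 RPM through HF+CR at 9254 ± 1504, LF+Ex at 9699 ± 793, HF+Ex at 11277 ± 740 and LF at 11771 ± 356 to HF at 13428 ± 3720 RPM. Among those neighbours, LF+Ex and HF+Ex did not overlap, as for 32.5% of the 351 in the same direction, and after rescaling they overlapped. The low end of the order, LF+CR, HF+CR and LF+Ex, was the same for both members, and HF was at the top for both.

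Summed, the pair averaged 13359 ± 2556 RPM in HF+CR, 17416 ± 919 in HF+Ex, 20244 ± 5043 in HF, 12509 ± 464 in LF+CR, 14622 ± 1527 in LF+Ex and 17220 ± 72.6 RPM in LF (SD, n = 3 each). The 3 LF libraries held nearly the same sum as deposited, at 17205, 17299 and 17157 RPM. Rescaled by size factors, the LF sum was 16558 ± 2633 (SD, n = 3). miR-107-3p made up 29.2% of the sum in LF 1 and 32.9% in both LF 2 and LF 3.

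The effect of calorie restriction was tested as the average over both diets, HF+CR against HF and LF+CR against LF. Tests were run with limma on log2(RPM + 1) over 351 miRNAs that reached 5 RPM in at least 3 libraries, with Benjamini-Hochberg adjustment over all 351, and an adjusted p under 0.05 made a call. miR-107-3p fell by 0.60 on the log2 scale with CR (SE 0.13, 95% interval -0.87 to -0.32, limma adjusted p = 0.0217), which is a level of 0.662 times that without CR. miR-103-3p fell by 0.49 (SE 0.12, 95% interval -0.74 to -0.24, limma adjusted p = 0.0274), or to 0.712 times. Of the 351 miRNAs, 6.55% were called in this comparison, 6.27% lower and 0.285% higher. Among all 351, miR-107-3p had the 6th smallest p and miR-103-3p the 10th. Summed as a single feature, the pair fell by 0.52 (SE 0.11, limma adjusted p = 0.0204 over 350 features).

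RPM is a share of each library, and the whole set of tested miRNAs was shifted in this comparison. The median log2 change of all 351 was -0.17, and it was 0.02 after RPM was rescaled by median-of-ratios size factors. After that rescaling miR-107-3p changed by -0.40 (limma adjusted p = 0.181) and miR-103-3p by -0.29 (limma adjusted p = 0.234). The direction held for both but neither was called. Of the calls among all miRNAs, 22 of 23 were lower as deposited, and 5 of 8 after rescaling. The size factors averaged 1.06 in HF+CR, 1.09 in HF, 0.832 in LF+CR and 1.06 in LF.

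The calls also depended on single libraries. miR-107-3p was called in 16 of the 18 fits that left out 1 library, and lost the call without HF 2 (adjusted p = 0.0556) or HF 3 (adjusted p = 0.0586). miR-103-3p was called in 13 of 18, and lost it without HF 2 (adjusted p = 0.0556), HF 3 (0.0656), LF 1 (0.0531), LF 3 (0.0520) or LF+CR 1 (0.0713). The log2 change stayed between -0.69 and -0.51 for miR-107-3p and between -0.60 and -0.39 for miR-103-3p in these fits. Over the same fits the count of all miRNAs called ranged from 0 to 77.

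**Figure D2:**
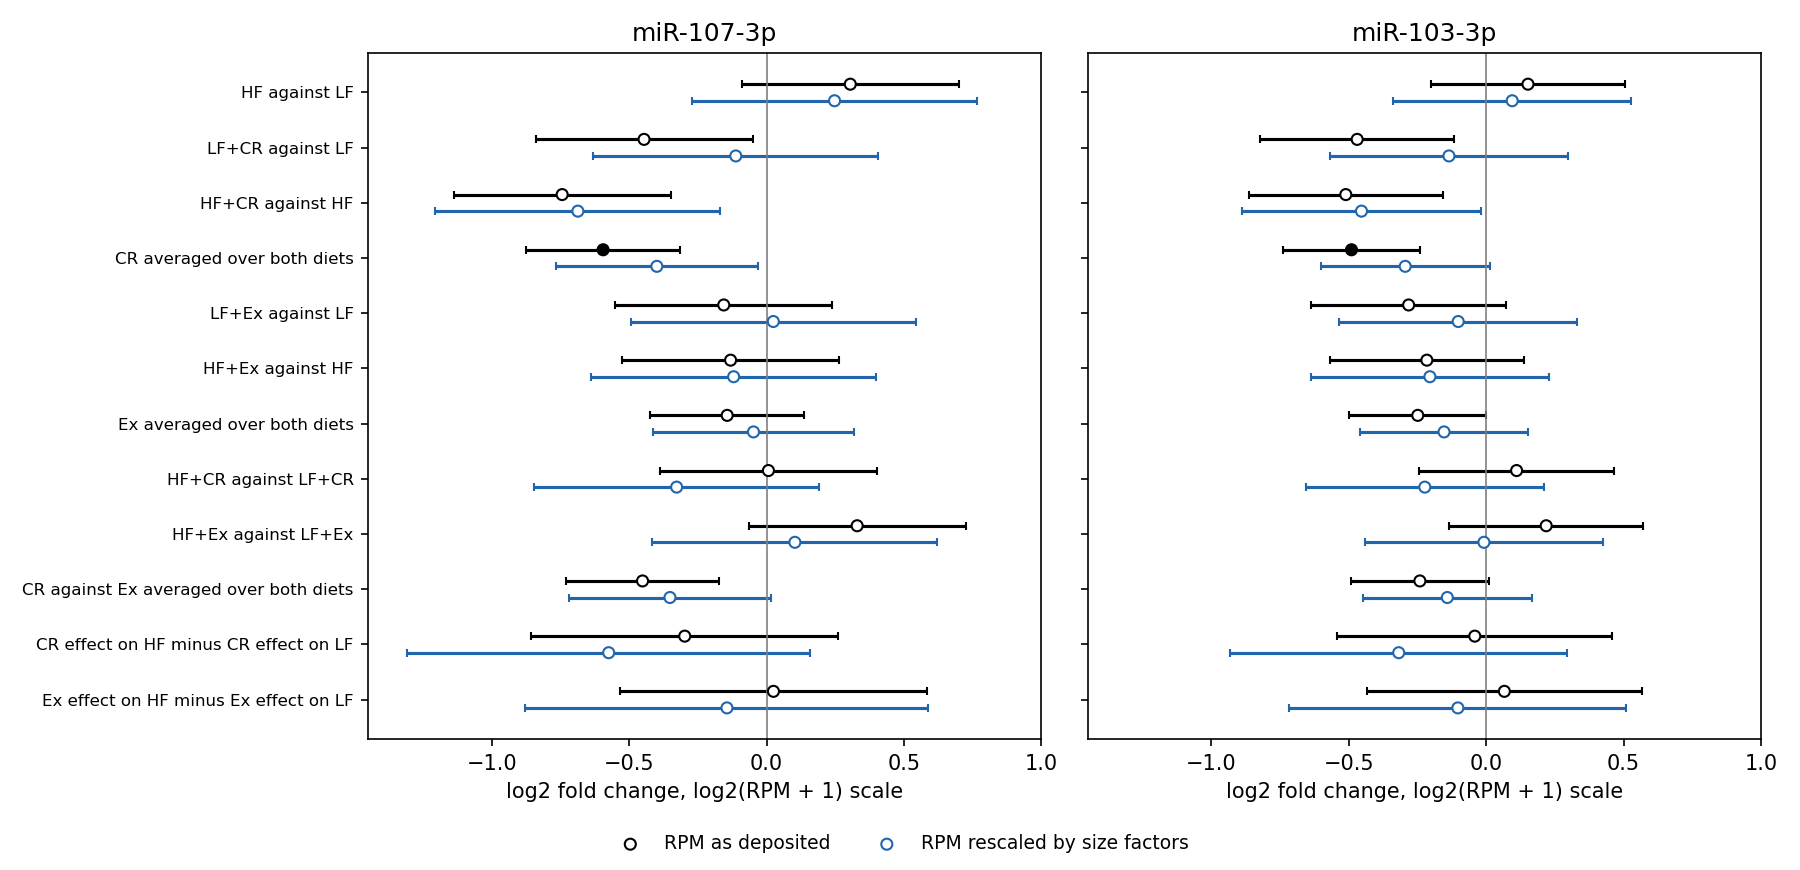
Log2 fold change of miR-107-3p (left) and miR-103-3p (right) in the 12 comparisons, first-named group over second, with 95% intervals. Black marks RPM as deposited and blue RPM rescaled by size factors; filled points have an adjusted p under 0.05. The 2 filled points are those of CR averaged over both diets, at -0.60 and -0.49, and their rescaled values are -0.40 and -0.29.

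Within a diet neither member passed the test. In HF+CR against HF, where no miRNA of the 351 was called (0%) and 53 had an unadjusted p under 0.05, miR-107-3p changed by -0.74 (SE 0.19, limma adjusted p = 0.127) and had the third smallest p. miR-103-3p changed by -0.51 (SE 0.17, limma adjusted p = 0.154). limma with voom weights also called 0 miRNAs there. HF had the largest SD of the 6 groups for both members as deposited, and HF+CR had it after rescaling. The result turned on single libraries. Without HF 1 both members were called, with miR-107-3p at -0.91 and miR-103-3p at -0.72 (limma adjusted p = 0.0448 for each). Without HF+CR 2, miR-107-3p was called at -0.94 (limma adjusted p = 0.0345). Over the 18 fits that left out 1 library, the count of all miRNAs called in this comparison ranged from 0 to 25. miR-107-3p did not overlap between HF+CR and HF, as did 9.4% of the 351 in the same direction. After rescaling its groups overlapped, with miR-107-3p at -0.69 and miR-103-3p at -0.45 (limma adjusted p = 0.179 and 0.309).

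In LF+CR against LF, where 6.27% of the 351 were called, miR-103-3p changed by -0.47 (SE 0.17, limma adjusted p = 0.0983) and miR-107-3p by -0.45 (SE 0.19, limma adjusted p = 0.129). Both had non-overlapping groups, as did 24.8% of all 351 in the same direction. The median of the 351 was -0.32 in this comparison. After rescaling, the members were at -0.14 and -0.11 and their groups overlapped.

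Whether CR acted differently on the 2 diets was tested as the change on HF minus the change on LF. The difference was -0.30 for miR-107-3p (95% interval -0.86 to 0.26, limma adjusted p = 0.606) and -0.04 for miR-103-3p (95% interval -0.54 to 0.46, limma adjusted p = 0.937). Of the 351 miRNAs, 0.855% were called. After rescaling the differences were -0.57 and -0.32 (limma adjusted p = 0.521 and 0.711). Without the 3 shallowest libraries they turned to 0.10 and 0.22. For each member the interval included a difference as large as its CR change.

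Lists of markers of liver cell types were also compared between the CR groups and their controls. None of these lists had a called member in CR averaged over both diets. All 6 leukocyte and Kupffer cell miRNAs, among them miR-142 and miR-223 of blood cells, had values below 0, with a median log2 change of -0.54, or -0.34 after rescaling. Their summed level was 3500 to 8987 RPM in HF+CR against 5805 to 7466 RPM in HF, and 2170 to 2970 RPM in LF+CR against 2354 to 7740 RPM in LF. The 4 hepatocyte miRNAs, which include the liver-specific miR-122, had a median of 0.09, and their sum was 277073 to 382068 RPM in HF+CR against 291914 to 321894 RPM in HF, and 340460 to 379853 RPM in LF+CR against 281434 to 372680 RPM in LF. Of the 4 erythroid miRNAs 3 were below 0 (median -0.44), with sums of 2792 to 5661 RPM in HF+CR against 3391 to 6664 RPM in HF, and 4183 to 5247 RPM in LF+CR against 3654 to 8293 RPM in LF. Of the stellate and mural miRNAs 4 of 5 were below 0 (median -0.29), as were 2 of 2 endothelial miRNAs (median -0.17), whereas 4 of 5 epithelial miRNAs were above 0 (median 0.22). After rescaling the medians were 0.29 for hepatocyte, -0.24 for erythroid, -0.09 for stellate and mural, 0.03 for endothelial and 0.41 for epithelial miRNAs. The median of all 351 was -0.17 as deposited and 0.02 after rescaling, and 68.7% of the 351 were below 0 as deposited. No marker of these 6 lists was at 0 in any library. Their part in the result was not tested, and in bulk liver fewer cells of a type and less RNA per cell cannot be told apart.

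Further libraries stood out in a few markers. LF+CR 1 and HF+CR 1 held the most pancreatic miRNA, at 348 and 138 RPM. Without both, miR-107-3p was at -0.61 (limma adjusted p = 0.0813) and miR-103-3p at -0.47 (limma adjusted p = 0.115) in CR averaged over both diets. HF+CR 3 and LF 1 were the highest of all 18 in summed leukocyte and epithelial miRNAs, and without them both members were still called lower with CR. Depth ranged from 2.38 to 10.5 megareads on listed miRNAs per library, and 2 of the 3 shallowest libraries were HF+CR. Without those 3, miR-107-3p was at -0.40 (limma adjusted p = 0.0611) and miR-103-3p at -0.36 (limma adjusted p = 0.0882).

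The diet itself was compared without CR or exercise. In HF against LF miR-107-3p was at 0.30 (95% interval -0.09 to 0.70, limma adjusted p = 0.518) and miR-103-3p at 0.15 (95% interval -0.20 to 0.51, limma adjusted p = 0.708), and 0.285% of the 351 were called. HF 1 lay below 2 of the 3 LF libraries in miR-107-3p and below all 3 in miR-103-3p, whereas HF 2 and HF 3 exceeded all of LF in both. The difference between HF and LF was within the spread of the HF libraries.

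The diets were also compared within each regimen. In HF+CR against LF+CR miR-103-3p was at 0.11 (limma adjusted p = 0.646) and miR-107-3p at 0.01 (limma adjusted p = 0.988), with overlapping groups, where 10.5% of the 351 were called. After rescaling both values turned to -0.22 and -0.33. In HF+Ex against LF+Ex miR-107-3p was at 0.33 (SE 0.19, limma adjusted p = 0.258) and miR-103-3p at 0.22 (SE 0.17, limma adjusted p = 0.410), where 8.26% were called. All 3 HF+Ex libraries lay above all 3 LF+Ex libraries for both members, as did 32.5% of the 351. After rescaling the values were 0.10 and -0.01 and the groups overlapped.

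Exercise was compared with no exercise on the same diet. Averaged over both diets, miR-103-3p was at -0.25 (95% interval -0.50 to 0.0012, limma adjusted p = 0.881) and miR-107-3p at -0.14 (95% interval -0.42 to 0.14, limma adjusted p = 0.881). limma called 0 of the 351 (0%), with 12 at an unadjusted p under 0.05, and limma with voom weights called 0 as well. In LF+Ex against LF, where limma called 0% (41 at an unadjusted p under 0.05, and 1 called with voom weights), miR-103-3p was at -0.28 (limma adjusted p = 0.486) with no overlap between groups, as for 15.1% of the 351 in that direction. After rescaling its groups overlapped. miR-107-3p was at -0.16 there (limma adjusted p = 0.702) with overlap. In HF+Ex against HF, where 0.855% were called, miR-103-3p was at -0.22 (limma adjusted p = 0.829) and miR-107-3p at -0.13 (limma adjusted p = 0.926). The exercise change on HF minus that on LF was 0.07 for miR-103-3p and 0.02 for miR-107-3p (limma adjusted p = 0.937 and 0.976), where 0.855% were called too.

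CR was set against exercise directly, averaged over both diets. miR-107-3p was at -0.45 (SE 0.13, 95% interval -0.73 to -0.17, limma adjusted p = 0.0538) and miR-103-3p at -0.24 (SE 0.12, 95% interval -0.49 to 0.01, limma adjusted p = 0.214). Of the 351 miRNAs, 1.14% were called. Neither member passed, and without HF+CR 2 the value of miR-107-3p was -0.55 with an adjusted p of 0.0465. With 1 library left out, the count of all miRNAs called in this comparison ranged from 0 to 37.

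The ratio of the members within a library does not depend on scaling. miR-107-3p made up 27.4% to 36.3% of the summed pair, with a mean of 32.8 ± 2.40% (SD, n = 18). The 95% Wilson intervals reach 0.232 to 0.470 percentage points to either side and cover counting error only. Some libraries of a group had overlapping intervals, such as LF 2 and LF 3 at 32.9% each, and others stood apart, such as LF 1 at 29.2%. By group the share was 30.5 ± 2.74% in HF+CR, 35.3 ± 0.900% in HF+Ex, 34.0 ± 2.04% in HF, 32.0 ± 2.35% in LF+CR, 33.6 ± 1.83% in LF+Ex and 31.6 ± 2.10% in LF (SD, n = 3 each).

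The log2 ratio of miR-107-3p to miR-103-3p changed by -0.11 with CR averaged over both diets, in an exact permutation test within diets (two-sided p = 0.365; the smallest p it can give is 0.005). For CR against Ex it was -0.21 (exact permutation p = 0.03, adjusted p = 0.3 over the 10 comparisons of the ratio). HF+CR shares, at 31.6%, 32.5% and 27.4%, were all below HF+Ex shares, at 36.3%, 34.5% and 35.0%. LF+CR shares, at 33.1%, 29.3% and 33.6%, overlapped LF+Ex shares, at 32.7%, 32.3% and 35.7%. None of the ratio comparisons passed after adjustment, and a single-diet comparison of 3 against 3 cannot go below an exact p of 0.1.

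**Figure D3:**
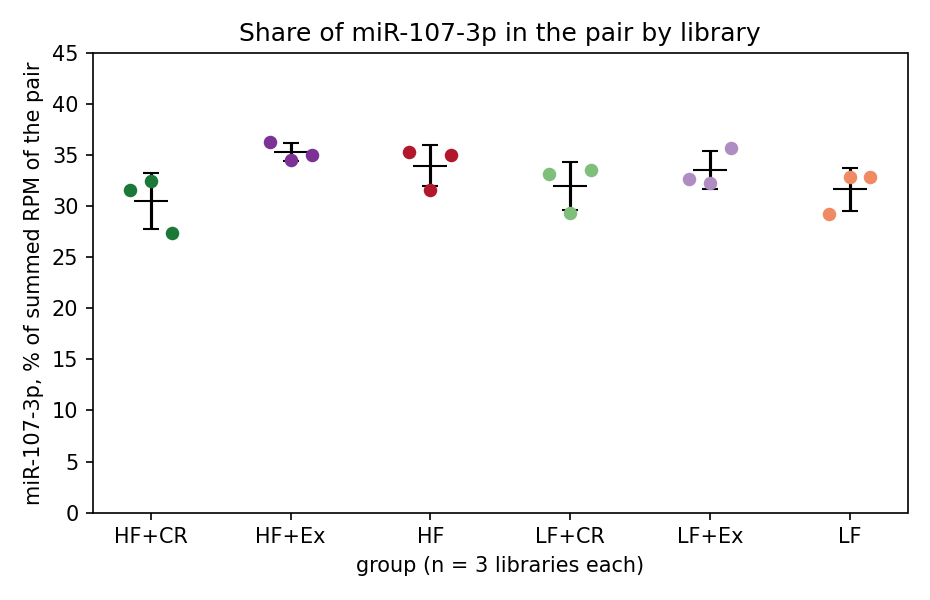
Share of miR-107-3p in the summed RPM of miR-103-3p and miR-107-3p, in percent, by group. Points are libraries, horizontal bars the mean and vertical bars the SD of 3 libraries. The shares lie between 27.4% and 36.3%, with HF+CR the lowest group mean (30.5%) and HF+Ex the highest (35.3%).

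Over the 18 libraries miR-107-3p was the closest miRNA to miR-103-3p among the 351, and the reverse held too, with a Pearson r of log2(RPM + 1) of 0.89 and a Spearman rho of 0.86. After rescaling r was 0.90. These points share their library, its depth and, for this pair, the first 21 of 23 bases. Next for miR-103-3p came miR-378a-3p (0.84), which lies in an intron of the metabolic coactivator gene Ppargc1b, then miR-29b-2-5p (0.76), miR-378c (0.75) and miR-185-3p (0.73, but 0.39 after rescaling). For miR-107-3p they were miR-378c (0.76), miR-378a-3p (0.75), miR-1981-5p (0.75) and miR-676-5p (0.72). The levels of miR-378a-3p were 8966 ± 1175 RPM in HF+CR, 12442 ± 2396 in HF+Ex, 13939 ± 4223 in HF, 8106 ± 2120 in LF+CR, 9531 ± 1480 in LF+Ex and 11171 ± 2438 RPM in LF (SD, n = 3 each). With CR averaged over both diets miR-378a-3p was at -0.54 (SE 0.17, limma adjusted p = 0.0579), just outside the threshold.

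The relatives with the shifted AGCAGC stretch, a list defined by sequence, were measured on the same scale. miR-16-5p was the most abundant of them at a mean of 6680 RPM, above miR-107-3p and below miR-103-3p. The other 6 ranged from 1621 RPM for miR-195a-5p to 42.7 RPM for miR-503-5p. With CR averaged over both diets none of the 7 was called (0 higher, 0 lower). All 7 had values below 0, beside 68.7% of all 351. Their median was -0.12 beside -0.17 for all 351, and 0.07 for the list after rescaling. miR-497-5p, clustered with miR-195a, had the largest change of them at -1.29 (SE 0.47, limma adjusted p = 0.0998), from levels of 33.3 to 215 RPM in HF+CR against 141 to 217 RPM in HF, and 47.6 to 75.3 RPM in LF+CR against 102 to 278 RPM in LF. miR-16-5p was at -0.01 and miR-15a-5p at -0.04.

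In HF+CR against LF+CR, where the pair overlapped, 2 of the 7 relatives were called higher and 0 lower, beside 9.12% higher among all 351. miR-16-5p averaged 8806 ± 779 RPM in HF+CR and 5106 ± 928 RPM in LF+CR (SD, n = 3 each; log2 change 0.80, limma adjusted p = 0.0191). miR-15a-5p averaged 1435 ± 179 RPM in HF+CR and 930 ± 113 RPM in LF+CR (log2 change 0.63, limma adjusted p = 0.0372). Both calls were lost after rescaling, with which the median of all 351 was 0.05 in place of 0.38. miR-322-5p was then called lower at -0.79 (limma adjusted p = 0.00797). Among all 351, 25 were called in this comparison after rescaling, 6 of them higher and the rest lower. In HF against LF miR-503-5p averaged 54.1 ± 9.03 RPM in HF and 29.2 ± 4.0 RPM in LF (log2 change 0.86, limma adjusted p = 0.166). It passed after rescaling (0.81, limma adjusted p = 0.0398), where 2 of the 351 were called, both higher.

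**Figure D4:**
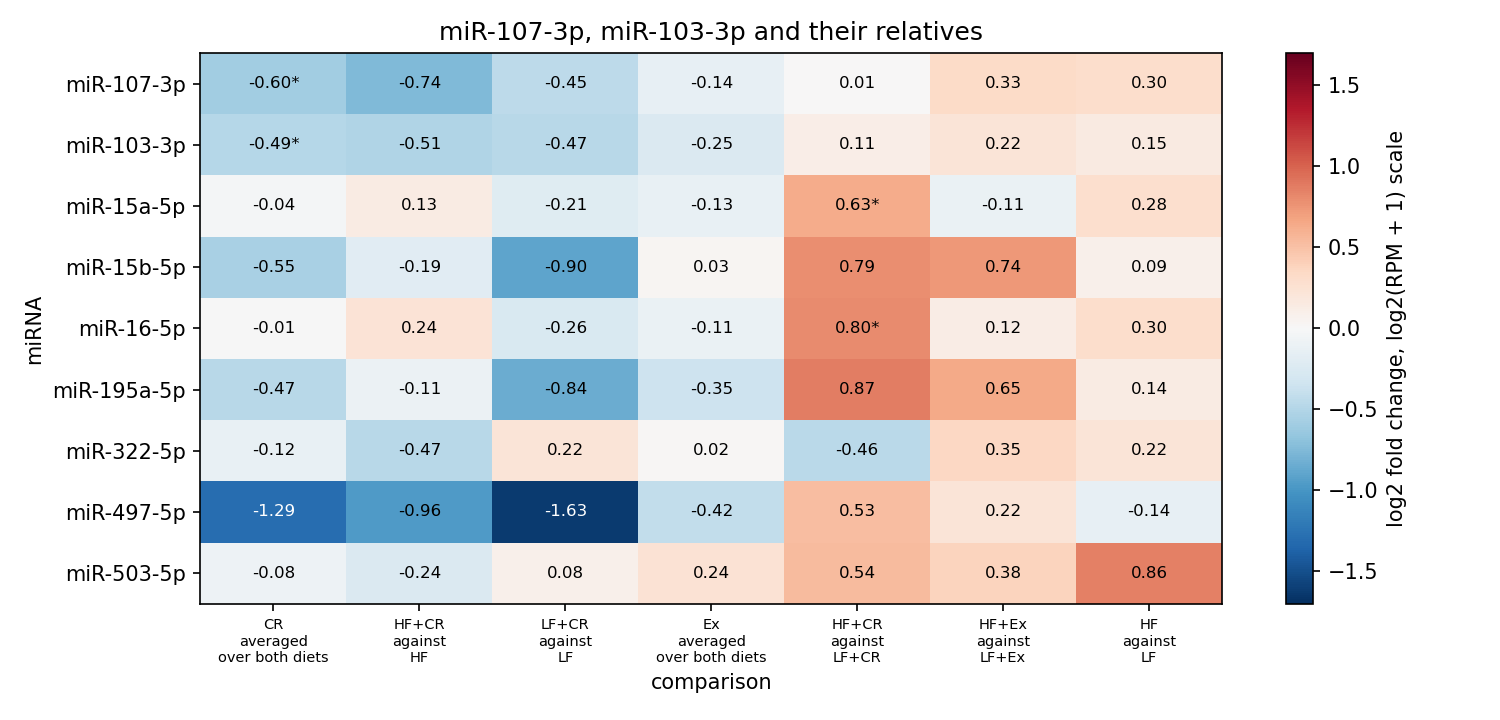
Log2 fold change, first-named group over second, of miR-107-3p, miR-103-3p and the 7 relatives in 7 comparisons. Colour gives the value from blue (lower) to red (higher), and an asterisk marks an adjusted p under 0.05. With CR averaged over both diets the asterisks are on miR-107-3p and miR-103-3p (-0.60 and -0.49), and in HF+CR against LF+CR on miR-15a-5p and miR-16-5p (0.63 and 0.80).

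Other miRNAs with described roles in insulin or glucose handling give the setting, from a list of 34 that were all measured and tested. With CR averaged over both diets 2 of the 34 were called lower and 0 higher, beside 6.27% lower among all 351. In all, 24 of the 34 had values below 0, near the share among all 351, which was 68.7%. The median of the list was -0.13 beside -0.17 for all 351, and 0.06 for the list after rescaling. After rescaling 8 of the 351 were called, 3 of them higher, and in this list 1 member was called lower and 1 higher. The higher one, named after its values were seen, was miR-29a-3p at 0.50 (limma adjusted p = 0.0137), which as deposited was at 0.30 (limma adjusted p = 0.0513). miR-34a-5p, which p53 induces and which represses the deacetylase gene Sirt1, was between 596 and 2940 RPM in HF+CR, against 2341 to 3259 RPM in HF. In LF+CR it was between 387 and 814 RPM, against 1293 to 3493 RPM in LF. It fell by 1.50 on the log2 scale (SE 0.35, limma adjusted p = 0.0256) and passed after rescaling too, at -1.31 (limma adjusted p = 0.0248). The growth and glucose regulator let-7b-5p fell by 0.52 (SE 0.15, limma adjusted p = 0.0484), with 6673 to 12127 RPM in HF+CR against 10256 to 11066 RPM in HF, and 4884 to 7036 RPM in LF+CR against 9681 to 13703 RPM in LF. It was not called after rescaling (-0.33, limma adjusted p = 0.175).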

How the data were processed

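Per the file headers, the deposited tables give RPM for 758 mature mouse miRNAs in 18 libraries of liver small RNA. The submitters' processing notes name mm10 as genome build. Not given in the sources used here: aligner, counter, miRNA annotation, filters, and how reads matching several miRNAs were assigned. Sample titles gave the groups and replicate numbers.

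All values were whole multiples (100%, tolerance 0.001 reads) of the RPM implied for 1 read, which gave the depths stated. The listed RPM added up to 96.4% to 97.1% of a full scale. RPM is a share, so a fold change is relative to the library, and the pseudocount of 1 RPM understates changes of low miRNAs. Comparisons were made in R 4.3.3 with limma 3.58.1 (lmFit, contrasts.fit, eBayes with intensity trend, two-sided) on log2(RPM + 1), with all 18 libraries in 1 fit and Benjamini-Hochberg adjustment over the 351 miRNAs that reached 5 RPM in at least 3 libraries. The other 407 were not tested. The summed pair was fitted in place of both members. Size factors were medians of ratios over the 402 miRNAs above 0 in every library. The ratio of the members was compared with exact permutation tests. The limma fit was run on simulated data with independent noise for each miRNA and no shift in scale between libraries. That simulation did not cover the rescaling or the permutation tests. Tables were read with jsonlite 2.0.0 and figures drawn with matplotlib 3.10.9 in Python 3.11.15.

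The members and lists were chosen with earlier results of these data known. Named are the members, their other arms, the 7 relatives with AGCAGC, the 5 miRNAs that correlate best with each member, and the insulin list members called where a member was called. miR-497a-5p is listed under its older name miR-497-5p.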

Additional observations from a re-analysis of the deposited data

How the results depend on the processing

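The alternatives were pseudocounts of 5 and 0.5, no filter, a filter of 50 RPM, rescaling by median-of-ratios or TMM factors, a fit of the compared groups alone, a replicate block, no intensity trend, robust eBayes, and leaving out each library. Added after seeing the data were voom weights (limma) from implied reads and leaving out libraries high in pancreatic (LF+CR 1, HF+CR 1), leukocyte and epithelial (LF 1, HF+CR 3) or neuronal (LF 2, HF+CR 2) miRNAs, or the 3 shallowest (HF+Ex 1, HF+CR 3, HF+CR 1). A count test on reads was not run, since values of 1 read are not listed. In this paragraph values are log2 changes of miR-107-3p, miR-103-3p and their sum, in that order. The call of CR averaged over both diets was lost at -0.40, -0.29 and -0.33 with size factors, at -0.42, -0.32 and -0.35 with TMM factors, at -0.60, -0.49 and -0.52 with the compared groups alone (adjusted p 0.0738, 0.0738 and 0.0772), at -0.61, -0.47 and -0.51 without the pancreatic-high libraries, and at -0.40, -0.36 and -0.37 without the shallowest. It held with the replicate block (-0.60 and -0.49, adjusted p 0.0259 and 0.0297), which changed no call of either member. Replicate numbers did not pair the libraries: same-numbered libraries had a median correlation of deviations of 0.0186, against 0.00655 for other numbers, and 7 of 18 were closest to their own number. In HF+CR against LF+CR the values turned to -0.33, -0.22 and -0.26 with size factors, -0.44, -0.34 and -0.37 with TMM factors, and -0.19, -0.019 and -0.072 without the neuronal-high libraries. For the Ex effect on HF minus that on LF they turned to -0.14, -0.10 and -0.12, and to -0.17, -0.13 and -0.14 with TMM, and miR-107-3p to -0.0066 without the neuronal-high libraries. For the CR effect on HF minus that on LF they were -0.57, -0.32 and -0.40 with size factors. They turned to 0.10, 0.22 and 0.18 without the shallowest, and miR-103-3p to 0.041 without the pancreatic-high. In LF+Ex against LF miR-107-3p turned to 0.024 and 0.086 under the 2 rescalings and the sum to 0.00099 with TMM. In HF+Ex against LF+Ex miR-103-3p turned to -0.0081 and -0.011. miR-107-3p in CR against Ex was called without the neuronal-high libraries (-0.55, adjusted p = 0.0413). The cause of these changes was not tested.

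With 1 library left out, CR averaged over both diets ranged from -0.69 to -0.51 for miR-107-3p, from -0.60 to -0.39 for miR-103-3p and from -0.62 to -0.44 for the sum. HF+CR against HF ranged from -0.94 to -0.57, from -0.72 to -0.31 and from -0.78 to -0.41. In LF+CR against LF miR-103-3p ranged from -0.49 to -0.43, with a call without HF 1 (adjusted p = 0.0444), and the sum from -0.49 to -0.44. CR against Ex ranged from -0.55 to -0.36 for miR-107-3p, and HF against LF from -0.045 to 0.36 for miR-103-3p, below 0 without HF 2. HF+CR against LF+CR ranged from -0.19 to 0.18, from -0.019 to 0.18 and from -0.072 to 0.18. The CR difference between diets ranged from -0.25 to 0.16 for miR-103-3p and from -0.32 to 0.048 for the sum, and the Ex difference from -0.14 to 0.15, from -0.15 to 0.26 and from -0.14 to 0.23. The log2 ratio ranged from -0.059 to 0.11 in LF+CR against LF and from -0.19 to 0.0035 in HF+CR against LF+CR. The count of all miRNAs called in CR averaged over both diets was 23, and 8 with size factors, 9 with TMM, 0 with the compared groups alone or without the pancreatic-high libraries, 62 without the leukocyte-high, 12 without the neuronal-high, 64 without the shallowest, and 0 to 77 with 1 library left out. Over all alternatives the count ranged from 0 to 7 in HF against LF (1 as reported), 0 to 57 in LF+CR against LF (22), 0 to 27 in HF+CR against HF (0), 0 to 2 in LF+Ex against LF (0), 0 to 5 in HF+Ex against HF (3), 3 to 52 in HF+CR against LF+CR (37), 2 to 74 in HF+Ex against LF+Ex (29), 0 to 51 in CR against Ex (4), 0 to 17 for the CR difference (3) and 2 to 12 for the Ex difference (3).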
